A study of Mus musculus with 4 samples.

Results

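*Ptch1*, *Smo*, *Hhip*, *Gli1*, *Gli2*, *Gli3* and *Sufu* encode the receptor, the signal transducer, a surface antagonist, the transcription factors and the cytoplasmic inhibitor of the Hedgehog pathway. Peaks of RUNX1 occupancy were assigned to these 7 genes if the nearest curated RefSeq transcription start site (TSS), measured from the peak edge, belonged to the gene or if the peak midpoint lay inside the gene body. By this rule, 11 of the 10494 peaks in the list belonged to 6 of the 7 genes, and *Sufu* had none. The 7 genes are among 26180 genes with a curated transcript.

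RUNX1 occupancy was measured by ChIP-seq, in which DNA bound by RUNX1 in fixed chromatin is pulled down with an antibody and sequenced. The material was ovaries of XX CD1 mouse embryos at embryonic day E14.5, freed of the mesonephros and carrying no labelled mutation or treatment. There were 2 RUNX1 ChIP samples from separate pools of 80 to 100 ovaries by the labels (the study's methods give a larger number), with 20 to 30 μg of chromatin and 10 μl of antibody per ChIP, and 2 input samples. The authors merged the replicates before calling peaks, so each peak has 1 fold enrichment and 1 p-value with no error between replicates, and no difference between peaks was tested. Read depth per sample is not in the peak list, and cell type markers could not be checked in a list of DNA regions. The ovaries were used whole, so the share of cells with RUNX1 at a site and the occupancy per cell cannot be told apart. The paper located a *Runx1* reporter in the pre-granulosa cells, the supporting cells of the fetal ovary, at this stage.

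In the absence of ligand, the receptor PTCH1 holds the membrane protein SMO inactive, and full-length GLI2 and GLI3 are processed into repressors. Binding of a Hedgehog ligand to PTCH1 releases SMO, and GLI activators then switch on target genes that include *Gli1*, *Ptch1* and *Hhip*. In the mouse gonad, Hedgehog ligands from supporting cells act on interstitial cells, which give rise to theca cells in the ovary and to Leydig cells in the testis. Whether this signal was active in the E14.5 ovaries was not measured here. The paper describes the ligand gene *Dhh* as a marker of fetal Sertoli cells, the supporting cells of the testis.

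The sequences of 3 member peaks are printed here because they show the strongest member peak, the only peak far outside curated genes and a peak over a start site with no RUNX motif. Sequences are from the RefSeq copy of GRCm38 (mm10), 5′ to 3′ on the strand of the gene. Capitals mark the RUNX core, which was searched as TGTGGT and TGCGGT on both strands and reads ACCACA and ACCGCA when it lies on the opposite strand. The *Ptch1* peak is at chr13:63567946-63568245 on the minus strand. The distal *Gli3* peak is at chr13:15212590-15212889 on the plus strand. The *Gli2* stretch is the part of the start site peak upstream of the transcript, at chr1:119053620-119053872 on the minus strand.
Ptch1 peak: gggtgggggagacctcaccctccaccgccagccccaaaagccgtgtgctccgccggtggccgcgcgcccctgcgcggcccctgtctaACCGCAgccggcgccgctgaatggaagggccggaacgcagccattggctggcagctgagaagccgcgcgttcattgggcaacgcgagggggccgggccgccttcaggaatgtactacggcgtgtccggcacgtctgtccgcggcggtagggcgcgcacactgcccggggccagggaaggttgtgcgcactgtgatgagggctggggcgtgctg
Gli3 distal peak: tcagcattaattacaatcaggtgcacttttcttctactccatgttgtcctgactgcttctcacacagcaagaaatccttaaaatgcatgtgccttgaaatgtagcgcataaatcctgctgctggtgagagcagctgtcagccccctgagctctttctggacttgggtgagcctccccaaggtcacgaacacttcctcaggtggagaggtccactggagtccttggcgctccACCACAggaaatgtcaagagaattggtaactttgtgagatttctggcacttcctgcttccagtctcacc
Gli2 start site peak: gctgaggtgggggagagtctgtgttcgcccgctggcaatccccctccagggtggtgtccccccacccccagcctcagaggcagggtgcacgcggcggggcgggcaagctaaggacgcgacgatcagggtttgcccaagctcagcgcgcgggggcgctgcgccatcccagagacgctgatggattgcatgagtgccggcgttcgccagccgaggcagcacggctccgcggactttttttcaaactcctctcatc

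The remaining 3 RUNX cores in member peaks are shown with 30 bases on either side, to compare the bases around the 2 forms of the core. The windows lie at chr6:29754703-29754768 on the plus strand for *Smo*, chr1:118942278-118942343 on the minus strand for *Gli2* and chr13:15463573-15463638 on the plus strand for *Gli3*. An intron in a label is the one that holds the peak midpoint. The *Smo* core itself lies outside that intron, in the coding exon sequence that follows it.
Smo intron 3 core: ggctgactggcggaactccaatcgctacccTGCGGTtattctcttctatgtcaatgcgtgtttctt
Gli2 intron 2 core: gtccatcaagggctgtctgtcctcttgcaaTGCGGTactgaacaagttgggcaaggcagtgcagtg
Gli3 start site core: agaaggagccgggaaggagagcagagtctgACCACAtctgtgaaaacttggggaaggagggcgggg

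*Ptch1* held the strongest RUNX1 peak of the 7 genes, at a fold of 22.64 over background, and the next strongest were the start site peaks of *Gli3* at 8.89 and *Gli2* at 8.46. The remaining 8 peaks, at *Smo*, *Gli1*, *Gli2*, *Gli3* and *Hhip*, had folds from 4.07 to 5.55. This order depends on the rule, since counting every peak within 50 kb of a TSS gave *Smo* and *Gli1* a strongest fold of 11.11, from peaks nearer to other genes. The *Ptch1* peak was 2.55 times the next member peak and 5.56 times the weakest one. The median fold of the 11 peaks was 5.21, beside 6.41 for all peaks, whose quartiles were 5.02 and 8.89. Of the 11 peaks, 8 were below the median of all peaks and 1, that of *Ptch1*, was above the upper quartile. A fold under 5 was found for 5 of the 11 peaks (45.5%), beside 24.3% of all peaks. Such peaks were close to the lowest fold in the list, 4.01.

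**Figure D1:**
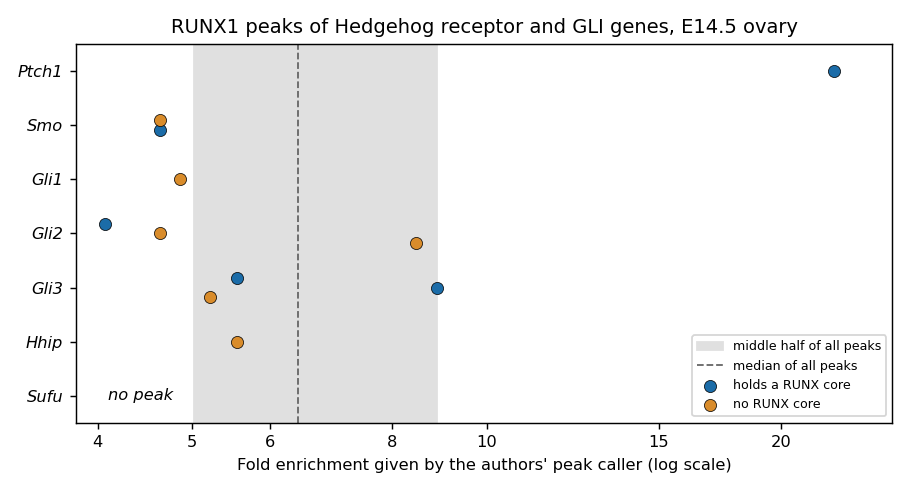
Fold enrichment of each RUNX1 peak (x axis, log scale) for the 7 genes (y axis). Each point is 1 peak of the merged list, blue where it holds a RUNX core and orange where it does not, the dashed line is the median of all peaks (6.41) and the grey band runs from their lower to their upper quartile (5.02 to 8.89). The *Ptch1* peak at 22.64 stands to the right of the band, 8 of the 11 peaks lie left of the dashed line and *Sufu* has no peak.

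At least 1 peak was assigned to 36.6% of all genes and to 40.8% of the 21000 protein-coding genes by the same rule, against 6 of the 7 Hedgehog genes. Longer protein-coding genes more often had a peak, and the 7 genes differ in length from 11.7 kb (*Gli1*) to 266 kb (*Gli3*). Among protein-coding genes of 10 to 30 kb, where *Smo* and *Gli1* belong, 42.3% had a peak. The share was 54.2% at 30 to 100 kb, the class of *Ptch1*, *Hhip* and *Sufu*, and 61.8% above 100 kb, the class of *Gli2* and *Gli3*. At least 3 peaks were found for *Gli2* and *Gli3*, beside 1.18% of all genes and 6.04% of protein-coding genes above 100 kb. This count depends on the rule. In gene bodies alone, *Gli2* and *Gli3* had 2 peaks each, and with the nearest TSS alone *Gli2* had 2 and *Gli3* 3. A peak within 1 kb of a TSS was found for 4 of the 7 genes, *Smo*, *Gli2*, *Gli3* and *Hhip*, beside 33.0% of all genes.

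**Figure D2:**
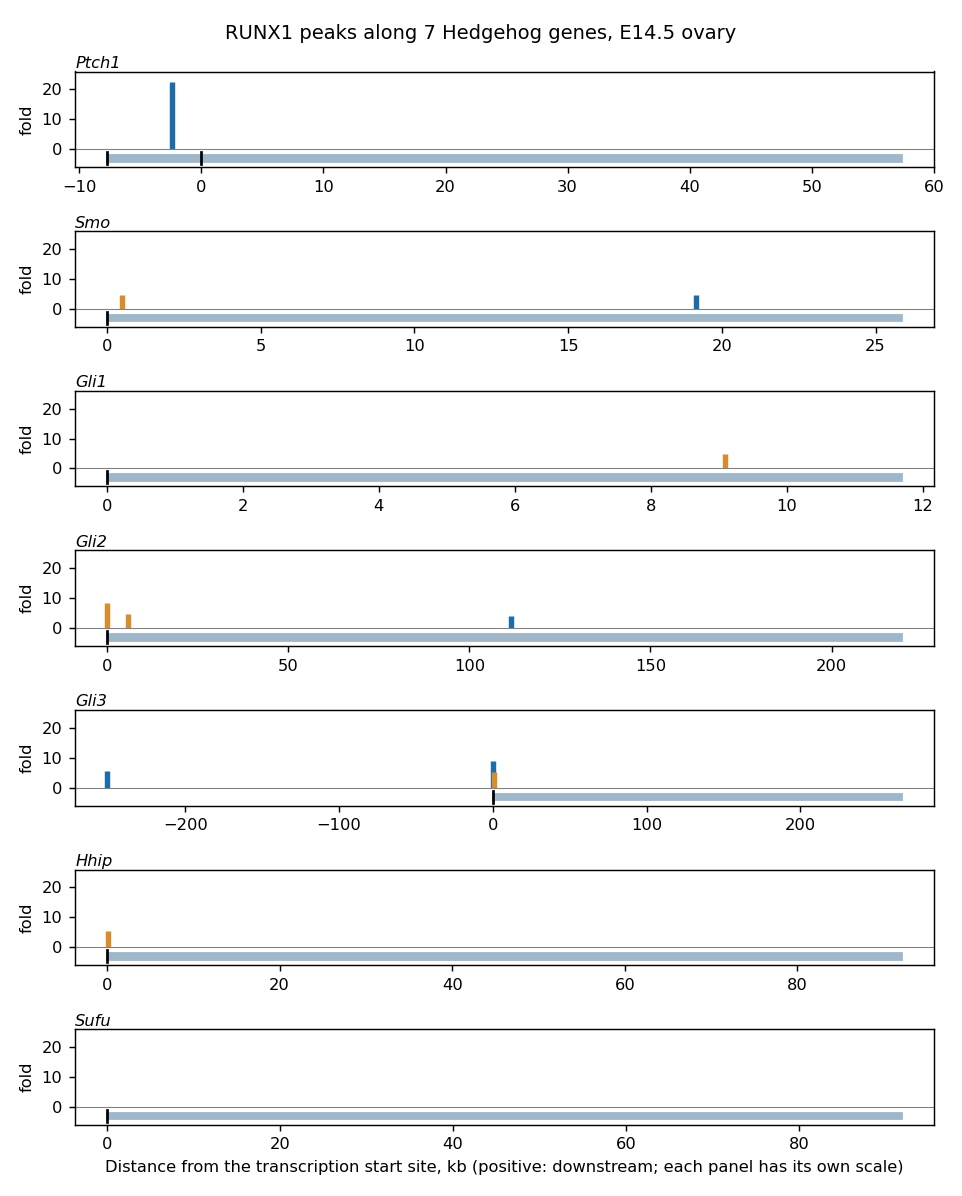
Position and fold of the RUNX1 peaks along each gene. The x axis is the distance of the peak midpoint from the TSS in kb, positive in the direction of transcription and with its own scale in each panel, and the y axis is fold. Vertical bars are peaks (blue with a RUNX core, orange without), horizontal bars are gene bodies and black ticks are start sites. *Ptch1* has 1 tall bar between its 2 start sites, *Gli2* and *Gli3* have 3 bars each, and *Sufu* has none.

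*Ptch1* (gene ID 19206, chr13:63508328-63573460, minus strand) encodes the Hedgehog receptor, which is itself a target of the pathway. Its only peak had a fold of 22.64 and a p-value of 1.23e-151, ranked 227 in the list by fold, and 97.8% of peaks had a lower fold. Among the 9570 genes with a peak, *Ptch1* ranked 257 by the fold of the strongest peak. The gene has 2 curated start sites, and the peak lay between them. From the peak edge, the downstream start site was 2211 bp away and the upstream one 5215 bp away. The peak was thus in intron 1 of the longer transcript and upstream of the shorter one, and did not overlap an exon.

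The *Ptch1* peak was 71.7% G and C with 34 CpG dinucleotides, whereas the windows of 300 bp lying 1 kb to either side were 35.3% and 49.7% G and C. It held 1 RUNX core of the form TGCGGT, 60 bp from its midpoint. Nearer to the midpoint were 2 CCAAT boxes, the motif of the factor NFY, at 11.5 and 18.5 bp on opposite sides of it, and the TEAD motif GGAATG at 45 bp. The closest other peak was 133935 bp from a *Ptch1* start site, was nearest to *Fancc*, which encodes a DNA repair protein, and had a fold of 27.46. The *Ptch1* signal in the list was a single region rather than a cluster of peaks.

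*Smo* (gene ID 319757, chr6:29735497-29761366, plus strand) encodes the signal transducer that PTCH1 restrains. Both of its peaks had a fold of 4.63, and 14.8% of peaks were lower. The peak at chr6:29735837-29736136 (p = 1.64e-11 by the authors' caller) began 340 bp downstream of the TSS in exon 1 and included 126 coding bases. It had the highest GC content of the member peaks, 74.3%, and no RUNX core. The peak at chr6:29754492-29754791 (p = 3.54e-08 by the authors' caller) had its midpoint in intron 3 of this gene of 12 exons and included 140 coding bases. It held a TGCGGT core at 94 bp from its midpoint, in the coding bases that follow the intron, and 2 CCAAT boxes. Its nearest TSS was that of *Ahcyl2*, 13652 bp away, so it counts for *Smo* only because it lies in the gene body.

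*Hhip* (gene ID 15245, chr8:79965851-80058008, minus strand) encodes a membrane protein that binds and sequesters Hedgehog ligands. It had 1 peak, at chr8:80057790-80058089, which covered the TSS with its midpoint 68.5 bp inside exon 1. The fold was 5.55 with a p-value of 1.14e-08, and 33.8% of peaks were lower. The peak held no RUNX core, whereas the windows 1 kb to either side held 2 and 1. Among the other member peaks without a core, only the start site peak of *Gli2* had a core in such windows (1 and 0). The distal *Gli3* peak had the same fold and p-value as the *Hhip* peak. In all, 68 peaks had this pair of values, and 95.8% of all peaks shared their pair of values with another peak. The order of such peaks by strength cannot be told from the list.

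*Gli1* (gene ID 14632, chr10:127329882-127341579, minus strand) encodes an activator whose transcription is a standard readout of Hedgehog signalling. Its only peak, at chr10:127332335-127332634, had a fold of 4.86 and a p-value of 7.19e-09, and 21.4% of peaks were lower. It was in exon 12 of 13, with 234 coding bases, and its midpoint was 9094.5 bp downstream of the *Gli1* TSS. The nearest TSS was that of *Arhgap9*, at 6693 bp from the peak edge. The peak held no RUNX core. At 8945 bp from its edge, it was the peak closest to the *Gli1* start site.

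*Gli2* (gene ID 14633, chr1:118834061-119053619, minus strand) encodes the main activator of the pathway in most tissues. Its strongest peak, at chr1:119053573-119053872, covered the TSS with a fold of 8.46 and a p-value of 2.98e-19, above 71.9% of peaks. A peak of fold 4.63 (p = 3.54e-08 by the authors' caller) lay in intron 1, with its midpoint 5636.5 bp downstream of the TSS. Neither of these held a RUNX core. The weakest member peak, at chr1:118942124-118942423 in intron 2, had a fold of 4.07 and a p-value of 6.82e-08, and 1.17% of all peaks were lower. Measured from the peak edge, the *Gli2* TSS was 111196 bp away and that of *Mir6346* was nearer, at 11797 bp. This intron 2 peak held 1 TGCGGT core, 37 bp from its midpoint, and 1 CCAAT box. At *Gli2*, therefore, the peak over the start site had the highest fold and the peak with a core the lowest.

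*Gli3* (gene ID 14634, chr13:15463723-15730026, plus strand) encodes the main repressor form of the GLI factors. The peak over its TSS, at chr13:15463602-15463901, had a fold of 8.89 and a p-value of 5.92e-29, above 75% of peaks. Its TGTGGT core was 146 bp from the midpoint, at the upstream edge of the peak. A neighbouring peak of fold 5.21 (p = 2.56e-18 by the authors' caller), at chr13:15464047-15464346 in intron 1, began 145 bp further on, and the fold of the start site peak was 1.71 times that of this one. It had no RUNX core. The distal peak was 250834 bp upstream of *Gli3*, between genes with curated transcripts, with a fold of 5.55 and a p-value of 1.14e-08. Its assignment to *Gli3* rests on curated transcripts, since it was lost when predicted ones were added. It held a TGTGGT core at 84 bp from the midpoint, the NR5A motif CAAGGTCA at 30 bp and 1 CCAAT box. With 49.3% G and C and 3 CpG dinucleotides it was the member peak least rich in both. NR5A1, the orphan receptor named SF1, is a factor of gonadal somatic cells, but a match to its motif does not show that it binds there.

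*Sufu* (gene ID 24069, chr19:46396896-46488804, plus strand) encodes the protein that retains GLI factors in the cytoplasm. No peak lay in its body of 91.9 kb or had its TSS as the nearest. The closest peak on the upstream side was 39737 bp from the TSS, had a fold of 5.92 and was nearest to *Mfsd13a*. On the other side, a peak of fold 4.63 lay 29592 bp beyond the end of the gene and was nearest to *Trim8*. The start site of *Actr1a*, which encodes a dynactin subunit, is 1155 bp from that of *Sufu* on the opposite strand, and *Actr1a* had no peak either. RUNX cores were no rarer in *Sufu* than in the other genes, with 132 in the body or 1.44 per kb, against 0.769 (*Gli1*) to 1.4 (*Ptch1*) per kb in the remaining 6. A site missing from the list may be bound below the limits of the authors' caller, whose list had a lowest fold of 4.01.

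Compared with the whole list, fewer of the member peaks lay near a start site. A TSS was within 1 kb of 5 of the 11 peaks (45.5%) and of 76% of all peaks, and more than 10 kb from 3 peaks (27.3%) and from 15.9% of all peaks. By the midpoint, 1 peak was in a promoter, 4 were in exons, 5 in introns and 1 was intergenic. In the whole list, 32.4% of midpoints were in promoters, 31% in exons, 23.9% in introns and 7.67% in intergenic sequence. The rule itself adds peaks inside gene bodies far from the TSS, namely those in intron 3 of *Smo*, exon 12 of *Gli1* and intron 2 of *Gli2*. These 3 had folds of 4.63, 4.86 and 4.07. The shares of 11 peaks are therefore a description of the member peaks and not a measure of a preference.

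A RUNX core was present in 5 of the 11 member peaks, beside 39.9% of all peaks. They were the *Ptch1* peak, the intron 3 peak of *Smo*, the intron 2 peak of *Gli2*, and the distal and start site peaks of *Gli3*. The form was TGCGGT in the 3 peaks of *Ptch1*, *Smo* and *Gli2* and TGTGGT in both *Gli3* peaks, and these forms were in 23.7% and 19.5% of all peaks. The core was within 100 bp of the midpoint in 4 member peaks and in 33.8% of all peaks. All 3 member peaks more than 10 kb from a TSS held a core, as did 1 of the 3 peaks at 1 to 10 kb and 1 of the 5 within 1 kb. Over the whole list these shares were 61.1%, 51.4% and 34.2%, in the same order. As for other motifs, a CCAAT box was in 4 of the 11 peaks (23.5% of all peaks), an NR5A motif in 1 (4.42%) and a TEAD motif in 1 (10.8%). None held the forkhead forms TGTTTAC and TATTTAC, the ETS motif CCGGAAGT or the GATA forms TGATAA and AGATAA, which were in 3.24%, 4.66% and 8.33% of all peaks.

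The GLI motif TGGGTGGTC, searched on both strands, was in none of the 11 peaks and in 0.305% of all peaks. In the gene bodies and 10 kb around them, *Gli2* had 6 matches, *Ptch1* 3, *Gli1* 2, *Gli3*, *Hhip* and *Sufu* 1 each and *Smo* 0. At *Ptch1*, 1 match was centred 9 bp upstream of the upstream start site and 1 was 704 bp upstream of the downstream start site. The *Ptch1* match closest to the RUNX1 peak was 1040 bp from its edge. The closest match was 897 bp from the peak at *Gli1* and 1279 bp from a peak at *Gli2*, whereas it was 13062 bp away at *Gli3* and 36969 bp away at *Hhip*. Thus, GLI motifs and RUNX1 peaks lay within 2 kb of each other at *Ptch1*, *Gli1* and *Gli2*, without overlap. How often a match of this kind lies as near to a peak elsewhere was not tested.

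In the RefSeq table of promoters (250 bases before to 50 after the start site), entries were found for 6 of the 7 genes, all but *Gli1*. RUNX1 peaks overlapped the promoters of *Gli2*, *Gli3* and *Hhip*. Among the 6 promoters, only that of *Gli3* held a RUNX core, beside 22.4% of 32851 promoters. None held the GLI motif, which was in 0.253% of promoters. The table has the downstream start site of *Ptch1*, so its upstream promoter is not counted here.

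The member peaks had a median GC content of 63.3%, beside 66.3% for all peaks, and ranged from 49.3% to 74.3%. Both neighbouring windows had fewer G and C bases than the peak at *Ptch1*, *Hhip*, *Gli1*, all 3 *Gli2* peaks, exon 1 of *Smo* and the start site of *Gli3*. A neighbouring window was richer in G and C than the peak at *Smo* intron 3 (61.7% against 56%), at the distal *Gli3* peak (54% against 49.3%) and at the intron 1 peak of *Gli3* (79% against 69.7%). The part of GC content in the fold values was not tested.

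**Figure D3:**
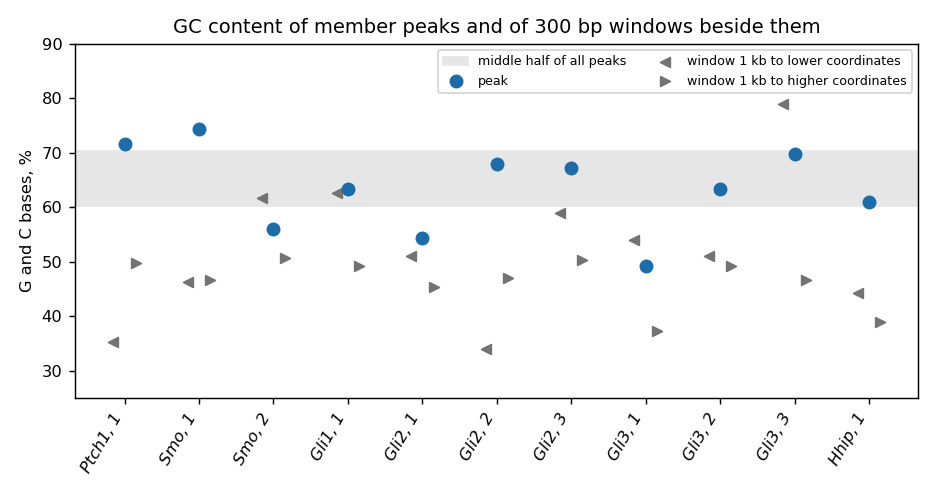
G and C bases in percent (y axis) for each member peak (x axis, gene and peak number in order of coordinate). Circles are peaks, triangles are windows of 300 bp that lie 1 kb to lower or higher coordinates, and the grey band spans the lower to the upper quartile of all peaks (60.3% to 70.3%). In 8 of the 11 peaks both triangles lie below the circle, and the *Ptch1* peak (71.7%) has the windows at 35.3% and 49.7%.

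To place the 7 genes in the pathway, 47 further genes were examined in 4 lists, of which 28 had a peak (59.6%), beside 36.6% of all genes and 40.8% of protein-coding genes. The share of protein-coding genes weighted by the length classes of these 47 genes was 43.5%, and no difference was tested. Among genes of the ligands and their release, 4 of 8 had a peak. The strongest was at *Shh*, which encodes the Sonic hedgehog ligand, with a fold of 14.07 in intron 1, although the nearest TSS was that of *9530036O11Rik*. It was followed by *Hhat* (6.66), whose product adds palmitate to the ligands, and by *Scube2* (4.81) and *Scube1* (4.63), of which SCUBE2 helps to release them. The *Scube1* peak was nearest to *Ttll12*. No peak was assigned to *Dhh*, *Ihh*, *Disp1* or *Scube3*, and *Dhh* and *Ihh* encode the ligands known from the gonads.

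Of the further receptors and co-receptors, 6 of 7 had a peak, beside 40.8% of protein-coding genes. *Gas1*, whose product binds ligand together with PTCH1, had the highest fold of the 47 genes, 23.45, in a peak over its exon 1 that held a RUNX core. It was the only pathway peak examined with a higher fold than that of *Ptch1*. The co-receptor gene *Boc* had a fold of 9.26 in intron 1, in a peak nearest to *Mir3081*. The related *Cdon* had 4.20 in a peak with its midpoint 30283.5 bp upstream. *Evc2*, which encodes a ciliary partner of SMO, had 9.79, *Lrp2* 7.22 and *Gpr161*, which encodes an inhibitory ciliary receptor, 5.55. *Evc* had none.

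Among regulators of GLI, 9 of 13 genes had a peak, beside 40.8% of protein-coding genes. The kinase genes *Gsk3b* (18.09), *Grk2* (12.03), *Csnk1a1* (11.42) and *Prkaca* (6.42) and the ubiquitin ligase genes *Btrc* (7.87) and *Spop* (6.61) had the highest folds. Of their products, GSK3B, CSNK1A1 and PRKACA phosphorylate GLI proteins, and BTRC and SPOP direct them to processing or degradation. The *Gsk3b* peak was nearest to *BC031361*, and the peak of *Kif3a* (6.42) was tied with *A430108G06Rik*. Peaks were also found at *Itch* and *Prkar1a*, whereas *Kif7*, *Stk36*, *Ulk3* and *Ift88*, like *Sufu*, had none.

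Among 19 genes of theca, Leydig and interstitial cells or of the Hedgehog response, 9 had a peak, beside 40.8% of protein-coding genes. This difference was not tested. The highest folds were at *Bcl2* (14.07), an inhibitor of apoptosis, and *Wt1* (12.96), a factor of gonadal somatic cells whose peak was tied with *Wt1os*. *Nr2f2*, which encodes the interstitial marker COUP-TFII, had 4 peaks of up to 11.11. *Pdgfra*, the receptor gene of interstitial progenitors, had 9.81, and the cyclin genes *Ccnd2* and *Ccnd1* had 9.05 and 8.41. *Tcf21*, *Mycn* and *Nes* also had a peak. The steroidogenic genes *Star*, *Cyp17a1* and *Hsd3b1* had none, nor did *Nr5a1*, *Maf*, *Foxf1*, *Foxf2*, *Acta2*, *Foxm1* and *Spp1*. A peak at an interstitial gene does not show that RUNX1 was bound there in interstitial cells, since the list gives no cell type.

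**Figure D4:**
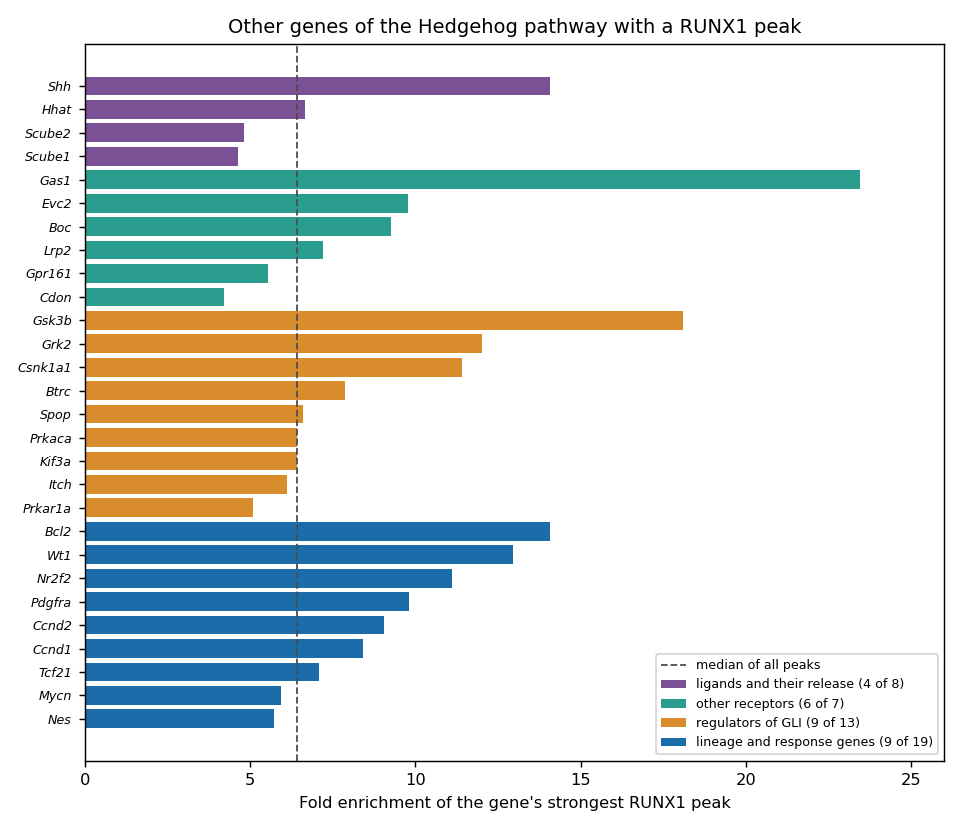
Fold enrichment of the strongest RUNX1 peak (x axis) of each of the 28 further pathway genes with a peak (y axis). Bars are coloured by list, whose counts are in the key, and the dashed line is the median of all peaks (6.41). *Gas1* has the longest bar (23.45), followed by *Gsk3b* (18.09), and *Shh* and *Bcl2* (14.07 each).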

How the data were processed

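RUNX1 ChIP-seq and input libraries were made from E14.5 CD1 ovaries (2 samples each). According to the study's methods and the submitters' processing notes, the authors mapped single-end reads to mm10 with Bowtie 1.2, kept unique hits, removed duplicates with Picard 1.110, merged the replicates, called peaks with HOMER 4.9, set each to 300 bp and kept those enriched over both the input and the surrounding signal. The last step had a minimum enrichment set in the study's methods. The notes also name bedtools 2.24.0. The deposited list gives a position, a fold over background and a p-value for each peak, and 10490 of the 10494 peaks were on assembled chromosomes, where shares over all peaks were computed. Both values are those of the authors' caller. Because the replicates were pooled and the peaks filtered, a site absent from the list was not necessarily unbound, and depth per replicate was not analysed here.

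Peaks were assigned with 45756 curated RefSeq transcripts of GRCm38.p6 (the same assembly as mm10), with coordinates counted from 1. Genomic context followed the order promoter (under 1 kb upstream), exon, intron, upstream (1 to 10 kb), downstream and intergenic. Motifs were exact matches on both strands. Python 3.11.15, pandas 2.3.3, pysam 0.24.0 and matplotlib 3.10.9 were used, and assignment and motif counting were tested on simulated data. No test was run, since the merged list gives no value per replicate. The members and gene lists were chosen with earlier results of these data known. All members were named with every peak, together with genes nearer to or tied for a member peak, and all pathway genes with a peak (values for the strongest 6 of a list). As drawn up, the pathway lists held 3 more genes, which are not reported here, and counts are over the remaining 47. Alternatives were limits on fold and p-value, other assignment rules and transcripts, and other forms of the RUNX core.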

Additional observations from a re-analysis of the deposited data

How the results depend on the processing

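Of 43 alternatives, 25 left the value within its limit (1.5 times for counts, no change for the median fold) and 18 moved it. Some of these moves follow from the setting itself. A limit on fold must raise the median fold, and a search for a single form of the core cannot raise the core count. With a fold of at least 8, there were 3 member peaks in 3 genes (*Ptch1*, *Gli2* and *Gli3*), 2 with a RUNX core, a median fold of 8.89 and 13 further pathway genes with a peak. This limit kept 27.3% of the member peaks and 32.1% of all peaks. With a p-value under 1e-20, there were 2 member peaks in 2 genes (*Ptch1* and *Gli3*), 2 with a core, a median fold of 15.77 and 16 further pathway genes. With the nearest TSS alone, *Gli1* had no peak, 3 peaks held a core and the median fold was 5.55. The median was 4.86 for peaks in gene bodies alone, 5.04 both with predicted transcripts and with TSSs within 50 kb, which each removed the distal *Gli3* peak, and 5.76 with any TSS within 50 kb, which gave *Sufu* 1 peak of fold 5.92. That rule also gave *Smo* 5 peaks and *Gli1* 3, each gene with a strongest fold of 11.11, above those of *Gli2* and *Gli3*. In gene bodies alone, the strongest fold of *Gli2* was 4.63. The core count was 3 for TGCGGT alone and 2 for TGTGGT alone. The *Ptch1* peak was assigned to *Ptch1* under every assignment rule tried and passed both limits.

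No paired analysis was possible because the peak list used here was called on merged replicates, and for the same reason no replicate was left out. The list gives no error for a fold.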
